A study of Mus musculus with 12 samples.

Results

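Auts2 was represented by 13 of the 48033 transcript rows in a table of RNA-sequencing counts from the brains of 5 × FAD mice, a transgenic model of Alzheimer's disease, and of their non-transgenic WT controls. The members were all rows whose Ensembl identifier belongs to the gene Auts2 in the GENCODE M21 annotation. The gene was chosen by the counts of one of these rows, ENSMUST00000182575, in the hippocampus of 5 × FAD against WT mice, so every genotype difference in the hippocampus is given as a description without a test. The 4 groups were hippocampus of WT, hippocampus of 5 × FAD, cerebral cortex of WT and cerebral cortex of 5 × FAD mice, with 3 libraries each, and all mice were 7 months old on a C57BL/6J background. The 5 × FAD mice carry human transgenes with familial Alzheimer's disease mutations, driven in neurons by the Thy1 promoter, and no second transgenic line was included. Libraries are named by region, genotype and the number in the library code, and a shared number in WT and 5 × FAD stands for different animals.

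Library totals lay between 3517967 and 5014389 counts, so that 3 counts corresponded to 0.598 to 0.853 CPM (counts scaled to a common library size). Mice of both sexes are described for each group, but Y-linked transcripts were found in 8 libraries and absent in the other 4, which were 5 × FAD 1 and 5 × FAD 2 in both regions. Xist, the RNA that silences an X chromosome in female cells, had between 30468 and 46630 counts in those 4 libraries and at most 25 in any other. Apart from 5 × FAD 3, the absence of Y-linked transcripts followed the genotype, and sex and genotype could not be told apart in those 4. The regions were checked by markers. Of 5 hippocampus markers 2 were tested. Zbtb20, a transcription factor of hippocampal neurons, was higher in the hippocampus (log2 fold change 1.63, adjusted p = 2.5145e-05, edgeR). Calb1 was not called (0.26, adjusted p = 0.584). Of 8 cortex markers 5 were tested, all with estimates below 0 in the hippocampus, and 3 were called. These were the cortical layer markers Rorb, Lamp5 and Cux1 (log2 fold changes -1.14, -1.04 and -0.68, adjusted p = 0.00475, 0.0171 and 0.0224). Of 4 choroid plexus markers 2 had rows. Folr1 was at 0 in all 12 libraries, and Kl was higher in the hippocampus (27.9 against 4.29 CPM, adjusted p = 0.0118), with 79 to 147 counts in WT and 27 to 190 in 5 × FAD hippocampus, 14 to 17 in WT cortex and 6 to 47 in 5 × FAD cortex. Whether carried-over choroid plexus took part in any region difference was not tested. Of 8 microglia markers only Trem2 was tested, at 45.9 CPM in WT and 145 in 5 × FAD cortex (log2 fold change 1.65, adjusted p = 0.747). Its cortex counts were 202, 248 and 129 in WT and 1046, 688 and 87 in 5 × FAD libraries. In the hippocampus they were 129, 91 and 142 in WT and 714, 809 and 164 in 5 × FAD libraries. In both regions the high values were those of 5 × FAD 1 and 2, the libraries without Y-linked transcripts. The 4 oligodendrocyte markers tested had a median log2 fold change of 0.55 in the cortex, all above 0 and none called. The part of these markers in the Auts2 values was not tested.

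AUTS2 is a nuclear and cytoplasmic protein of neurons. In the nucleus it joins a variant Polycomb repressive complex, PRC1, which with casein kinase 2 and the acetyltransferase EP300 is linked to active transcription of neuronal genes. In the cytoplasm it acts on the actin cytoskeleton in neurite growth and migration, and disruption of the human gene is associated with autism and intellectual disability. The rows described here are not annotated as its messenger RNAs. They are transcripts of the same locus without an annotated coding sequence of their own. They are annotated as processed transcripts or as retained-intron transcripts, and the latter keep part of an intron.

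The gene (ENSMUSG00000029673) spans 1106.01 kb of the minus strand of chromosome 5 (GRCm38, chr5:131437333-132543344). GENCODE M21 annotates 20 transcripts. Of these, 13 were in the count table, 7 as processed transcripts and 6 as retained-intron transcripts, and none of the 7 coding transcripts was (0 of 7). The longest row, ENSMUST00000161226, has 19 exons and 7409 bases and covers the whole span. ENSMUST00000182575 has 18 exons and 6178 bases, and all of them lie within exons of ENSMUST00000161226 (0 bases of its own). These rows share 16 introns. ENSMUST00000161226 carries 1231 further bases, of which 687 lie at its 5′ end, 472 at its 3′ end and 72 in 1 internal exon. The only annotated feature by which ENSMUST00000182575 could be recognised was therefore 1 splice junction that skips this exon. The 3 retained-intron rows ENSMUST00000196613, ENSMUST00000198149 and ENSMUST00000198165 are single exons inside the gene. Coding transcripts share 86.0% of the bases of ENSMUST00000182575, 72.9% of ENSMUST00000161226, 97.9% of ENSMUST00000182974 and 98.5% of ENSMUST00000160071. For the single-exon rows ENSMUST00000196613, ENSMUST00000198149 and ENSMUST00000198165 the shares are 0%, 2.53% and 9.36%. The counting program and its treatment of shared bases are not given in the sources used here. How far reads of Auts2 messenger RNA were counted in these rows was not tested.

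**Figure D1:**
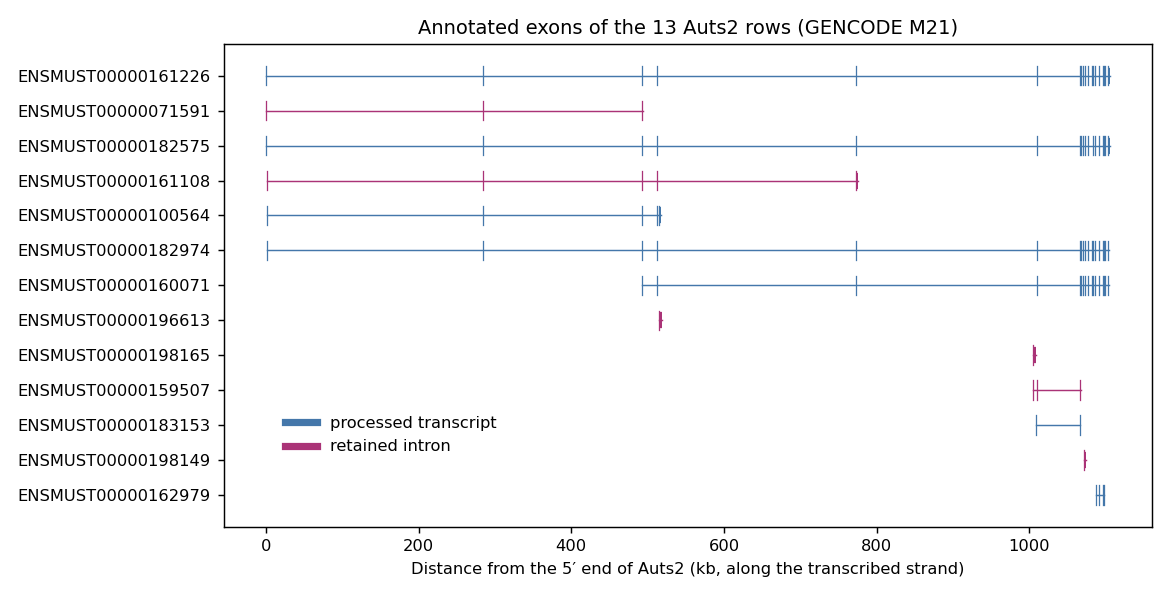
Annotated exons (vertical ticks and boxes) and introns (lines) of the 13 Auts2 rows against the distance in kb from the 5′ end of the gene, with processed transcripts in blue and retained-intron transcripts in purple. ENSMUST00000161226 and ENSMUST00000182575 run over nearly all of the 1106.01 kb, whereas ENSMUST00000196613, ENSMUST00000198149 and ENSMUST00000198165 are single blocks.

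The sequences that distinguish the rows the results turn on are given here as in the GENCODE M21 transcripts, 5′ to 3′ on the gene's strand. The first pair is the internal exon of ENSMUST00000161226 (chr5:131461282-131461353, minus strand) in capitals between 30 bases of each neighbouring exon, and the same neighbours joined in ENSMUST00000182575. All 72 bases of the exon lie in an annotated coding sequence, with a GC content of 59.7%, and 3 rows of the table and 3 coding transcripts hold it. The joined form occurs in ENSMUST00000182575 and in no coding transcript (0 of 7).
ENSMUST00000161226: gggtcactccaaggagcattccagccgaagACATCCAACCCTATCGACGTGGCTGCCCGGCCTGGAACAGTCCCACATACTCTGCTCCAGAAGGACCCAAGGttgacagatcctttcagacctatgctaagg
ENSMUST00000182575: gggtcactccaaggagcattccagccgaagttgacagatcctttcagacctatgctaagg

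The second pair shows the end of an exon in the 5′ portion of the gene. In ENSMUST00000071591, a retained-intron row of 3 exons and 2177 bases, transcription is annotated to run on into the intron for 578 bases (chr5:132049730-132050307, minus strand) that no other row holds. The first 60 of these are in capitals. In ENSMUST00000161226 the same exon is spliced to the next one, a junction held by 6 rows and 2 coding transcripts.
ENSMUST00000071591: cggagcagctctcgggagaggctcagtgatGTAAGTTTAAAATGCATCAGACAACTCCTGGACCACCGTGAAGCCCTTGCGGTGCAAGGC
ENSMUST00000161226: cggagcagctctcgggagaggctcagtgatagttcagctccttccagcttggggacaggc

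ENSMUST00000182575, the row that chose the gene, was either among the strongest of the Auts2 rows or not counted at all. Hippocampus libraries 1, 2 and 3 of WT mice held 1706, 1473 and 1494 counts of it. In the hippocampus of 5 × FAD mice it had 0, 0 and 0 counts. In the cortex of WT mice it had 1202, 0 and 0 counts, and in the cortex of 5 × FAD mice 1227, 922 and 1447. It was thus at 922 to 1706 counts in 7 libraries and at 0 in 5, with no library between. In the hippocampus the WT mean was 344 ± 25.4 CPM (SD, n = 3), 471-fold above a floor of 3 counts set for each 5 × FAD library. This floor does not cover how reads of shared bases were assigned. Pooled with ENSMUST00000161226, which holds all its bases, WT was at 441 ± 24.5 and 5 × FAD at 157 ± 79.9 CPM, a ratio of 0.357. With ENSMUST00000071591 added the ratio was 0.518. How far assignment of reads made the 0 counts was not tested. In the cortex both states occurred in WT and the 3 5 × FAD libraries were all in the high state, so the order of genotypes was not that of the hippocampus. Of the 8 libraries with Y-linked transcripts 5 held the row, as did 2 of the 4 without. By library number, WT 1 held it in both regions, WT 2 and WT 3 in the hippocampus only, and 5 × FAD 1, 2 and 3 in the cortex only. Whether a number marks the same mouse in both regions is not stated.

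Rows that were at 100 counts or more in some library and at 3 or fewer in another of the same region were a small part of those that reached 100. In the hippocampus 8777 rows reached 100 counts and 677 of these (7.71%) fell to 3 or fewer, and in the cortex 657 of 8439 did (7.79%). Among rows with an Ensembl identifier, as the Auts2 rows have, the shares were 5.05% and 5.00%. In both regions 357 rows met this. Of the Auts2 rows, 9 reached 100 counts in each region, and ENSMUST00000182575 alone met it in either. No other row of the table was high in the same 7 libraries and at 3 or fewer counts in the other 5, and none had the reverse pattern (0 of each).

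ENSMUST00000071591 also fell into separate levels. The hippocampus libraries held 45, 46 and 47 counts (WT) and 62, 382 and 500 counts (5 × FAD). The cortex libraries held 40, 507 and 285 counts (WT) and 37, 64 and 45 counts (5 × FAD). Its 4 high libraries, at 285 to 507 counts, were all among the 5 in which ENSMUST00000182575 was at 0, while the 7 libraries that held ENSMUST00000182575 had 37 to 64 counts. The fifth library at 0, hippocampus 5 × FAD 1, had 62 counts of ENSMUST00000071591. In that library ENSMUST00000161226 was at its highest, 997 counts, against 286 to 514 in the other 11. These rows overlap, as 73.4% of the bases of ENSMUST00000071591 are shared with other rows, and how far reads were moved between them in counting was not tested.

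The other rows of at least 5% of the gene's counts were present in all 12 libraries. ENSMUST00000161226 was counted 454, 466 and 403 times in WT hippocampus, 997, 417 and 514 times in 5 × FAD hippocampus, 346, 440 and 286 times in WT cortex and 387, 357 and 427 times in 5 × FAD cortex. The genotypes overlapped in both regions. ENSMUST00000196613, a single exon with 1693 bases that no other row covers, was counted 467, 579 and 454 times in WT hippocampus and 844, 620 and 414 times in 5 × FAD hippocampus. The cortex values were 301, 460 and 347 (WT) and 421, 357 and 429 (5 × FAD), again with overlap. ENSMUST00000161108, a retained-intron row of 5 exons, was counted 332, 437 and 338 times in WT and 446, 230 and 412 times in 5 × FAD hippocampus. In the cortex its counts were 307, 337 and 242 (WT) and 248, 357 and 322 (5 × FAD), and its genotypes overlapped in both regions. ENSMUST00000182974, a processed transcript of 19 exons, was counted 213, 142 and 128 times in WT and 142, 64 and 121 times in 5 × FAD hippocampus. In the cortex its counts were 408, 118 and 80 (WT) and 79, 78 and 126 (5 × FAD), so that cortex WT 1 stood above the 64 to 213 of the other 11 libraries. The remaining 7 rows had mean counts between 8.17 and 103.7. Among these, ENSMUST00000100564 was at 0 in 8 libraries and had 32 counts in hippocampus WT 1, 50 in cortex WT 1, and 22 and 46 in cortex 5 × FAD 2 and 3. All 4 of these libraries held ENSMUST00000182575.

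**Figure D2:**
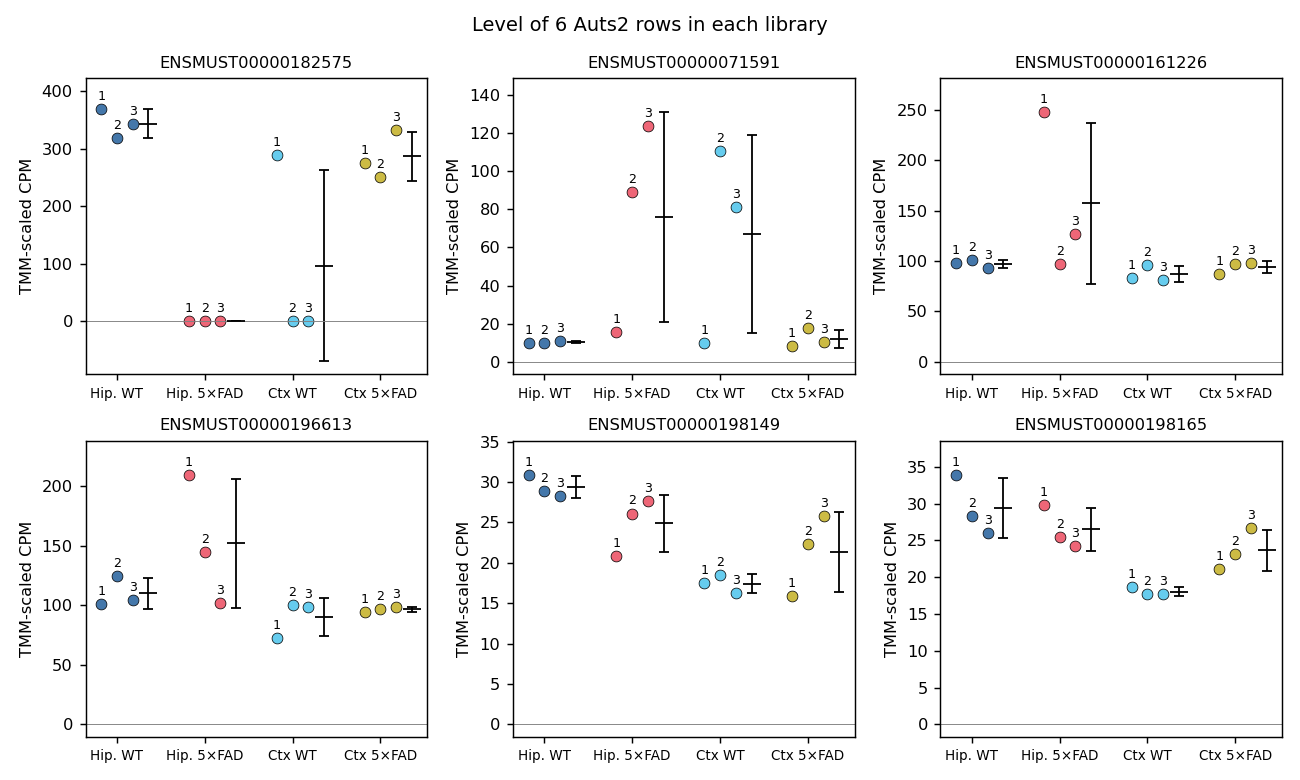
TMM-scaled CPM of 6 Auts2 rows in each library (points with the library number), by region and genotype, with the mean and SD of each group of 3 beside them. ENSMUST00000182575 is at 0 in hippocampus 5 × FAD 1 to 3 and cortex WT 2 and 3, ENSMUST00000071591 is high in 4 of these 5, and the other rows shown are above 0 in every library.

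Levels per kilobase of transcript account for the length of a row but not for how reads from shared bases were assigned. On this scale ENSMUST00000182575 was at 55.6 ± 4.11 CPM per kb in WT hippocampus and 46.4 ± 6.78 in 5 × FAD cortex (SD, n = 3 each). ENSMUST00000196613 was at 30.4 ± 3.60 and 26.7 ± 0.573 in the same groups, and ENSMUST00000161226 at 13.1 ± 0.555 and 12.7 ± 0.843. In these groups the exon-skipping row was therefore listed above the row that contains its whole sequence. How far this order came from the assignment of reads from shared bases was not tested. ENSMUST00000071591 was at 4.67 ± 0.261 in WT hippocampus and at 34.9 ± 25.4 in 5 × FAD hippocampus, where library 1 lay far below the other two.

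The share of each row in the summed Auts2 counts followed the same division. ENSMUST00000182575 took 38.4% to 46.1% of the sum in the 7 libraries that held it. ENSMUST00000071591 took 18.6% to 22.7% in its 4 high libraries and 1.21% to 2.67% in the other 8. The 6 rows of at least 5% on average took 82.7% to 90.1% of the sum in each library. By region, the share of ENSMUST00000182575 was 22.1% ± 24.3 in the hippocampus and 28.4% ± 22.2 in the cortex (SD, 6 libraries each), given without a test since its hippocampus values chose the gene. The next 2 rows by share were compared between 6 hippocampus and 6 cortex libraries by a two-sided exact permutation test over 924 splits, with p adjusted over the 3 largest rows. For ENSMUST00000196613 they were 20.1% ± 8.05 and 16.4% ± 4.95 (n = 6, exact p = 0.361, adjusted p = 0.718), and for ENSMUST00000161226 19.2% ± 9.17 and 15.6% ± 3.30 (n = 6, exact p = 0.478, adjusted p = 0.718). Neither difference exceeded the spread between libraries. Leaving out each library in turn moved them from 1.58 to 5.15 percentage points for ENSMUST00000196613 and from 0.25 to 5.00 for ENSMUST00000161226. Both shares have ENSMUST00000182575 in their denominator.

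**Figure D3:**
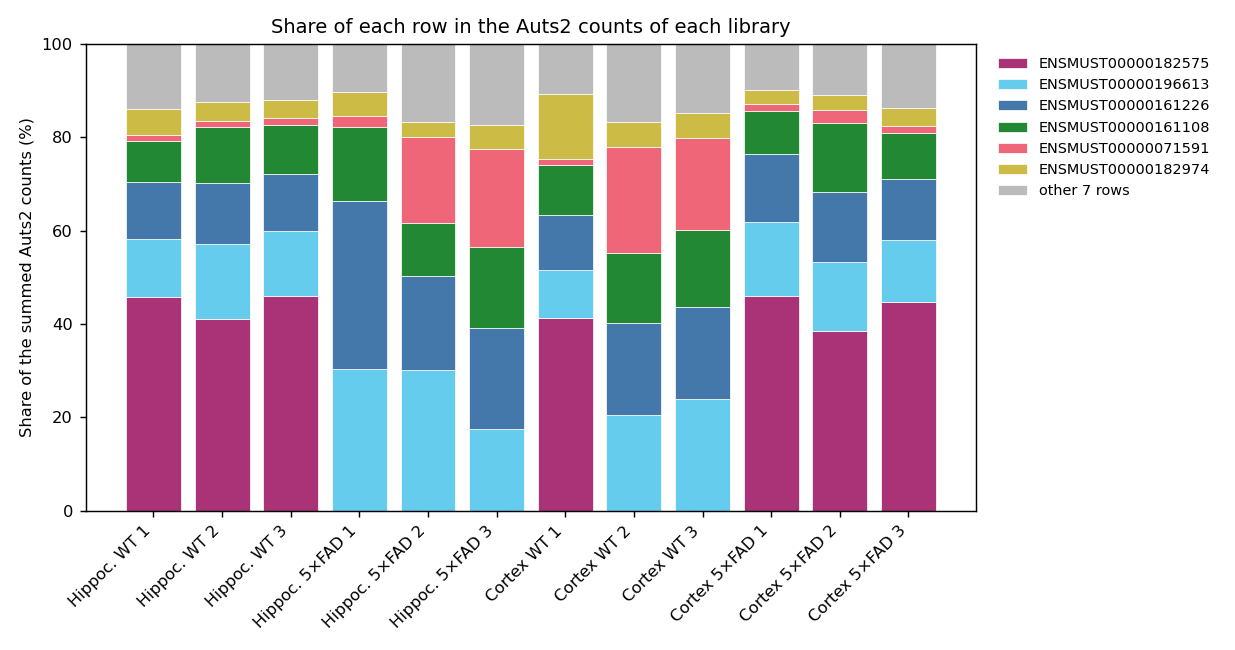
Stacked bars of the share (%) of each Auts2 row in the gene's summed counts, one bar per library, with the 7 rows under 5% in grey. ENSMUST00000182575 (purple) takes 38.4% to 46.1% of 7 bars and is missing from the other 5, and ENSMUST00000071591 (red) takes 18.6% to 22.7% of 4 of those 5.

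Summed over the 13 rows, Auts2 ranked 199 of 22103 genes and assembled loci by mean counts and made up 0.0413% to 0.0768% of a library. The sums were 3734, 3590 and 3255 counts in WT hippocampus and 2779, 2059 and 2372 in 5 × FAD hippocampus. In the cortex they were 2915, 2237 and 1454 in WT and 2664, 2398 and 3240 in 5 × FAD mice. After scaling, WT hippocampus was at 777 ± 29.7 CPM and 5 × FAD hippocampus at 586 ± 106 (SD, n = 3 each), a ratio of 0.754 without overlap. In the cortex WT was at 534 ± 148 and 5 × FAD at 666 ± 74.2 CPM, a ratio of 1.25 with overlap. In bulk tissue fewer cells of a type and less RNA per cell cannot be told apart.

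The direction of the sum depended on ENSMUST00000182575. Without this row the hippocampus stood at 434 ± 26.6 CPM in WT and 586 ± 106 in 5 × FAD mice (SD, n = 3 each), a ratio of 1.35, again without overlap but in the opposite direction. In the cortex it stood at 438 ± 43.6 in WT and 379 ± 49.0 in 5 × FAD mice, a ratio of 0.866 with overlap. The 3 single-exon retained-intron rows together were at 169 ± 12.2 CPM in WT and 204 ± 53.6 in 5 × FAD hippocampus, and at 126 ± 15.3 and 142 ± 9.76 in the cortex. Their genotypes overlapped in both regions.

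**Figure D4:**
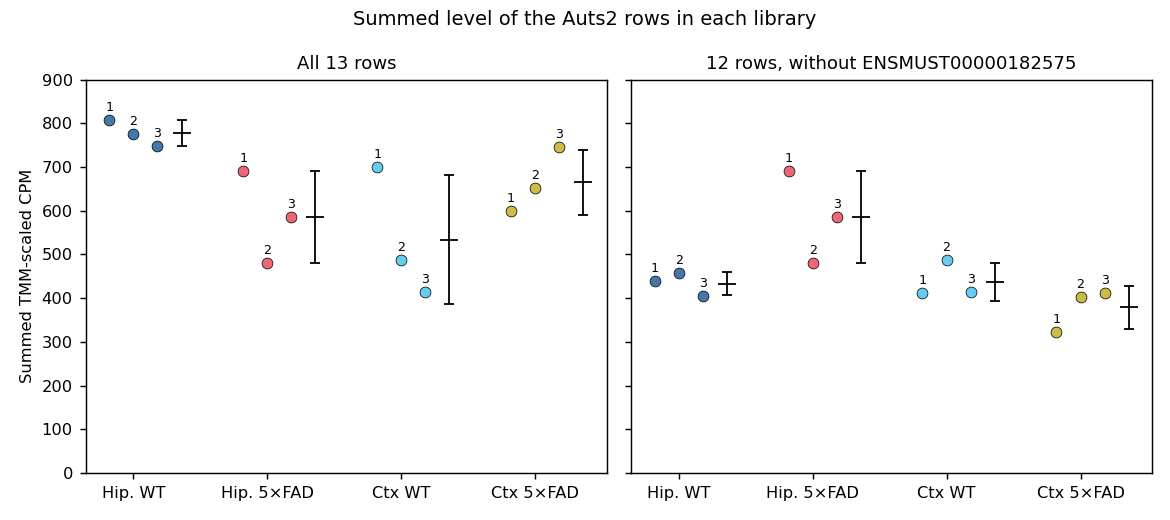
Summed TMM-scaled CPM of the Auts2 rows in each library (points with the library number), with the mean and SD of each group of 3, for all 13 rows at left and for the 12 rows without ENSMUST00000182575 at right. In the hippocampus 5 × FAD lies below WT at left (586 against 777) and above it at right (586 against 434).

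Genotype was tested in the cortex, whose libraries did not choose the gene, with edgeR's quasi-likelihood test over the whole table. The Auts2 sum had a log2 fold change of 0.31 (SE 0.21, 95% interval -0.19 to 0.81, adjusted p = 0.807), so a difference was not detected, and values within this interval were not told apart from 0. Without ENSMUST00000182575 the estimate was -0.22 (adjusted p = 0.808). The cortex libraries with Y-linked transcripts were 3 WT and 1 5 × FAD library, too few to tell genotype from the spread of 5 × FAD libraries. Of all gene sums tested, 0.0175% were called at an adjusted p under 0.05. Of the 13 rows 11 passed the filter on low counts. DESeq2 called 0 of these, with no adjusted p for ENSMUST00000182575. In edgeR 0 were called, against 0.0545% of all rows. At an unadjusted p under 0.05, where 5.34% of all rows lay, there was 1, ENSMUST00000071591 (log2 fold change -2.48, SE 0.83, adjusted p = 0.907), which rests on the 2 high WT libraries. For ENSMUST00000182575 the estimate was 1.57 (SE 2.14, adjusted p = 0.948), and it moved to 0.99 without cortex WT 2 and 0.97 without cortex WT 3. It was called only without cortex WT 1, the one WT library that held it, when the remaining WT libraries were both at 0 (adjusted p = 0.0331). Over the tested rows the median log2 fold change was 0.11, with 8 higher and 3 lower.

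Hippocampus and cortex were compared over all 12 libraries as the mean of both genotypes in each region. The Auts2 sum had a log2 fold change of 0.19 (SE 0.14, 95% interval -0.12 to 0.49, adjusted p = 0.522; 0.32 without ENSMUST00000182575, adjusted p = 0.147), where 6.86% of all gene sums were called. DESeq2 called 0 of the 13 rows, with no adjusted p for ENSMUST00000182575. In edgeR all 13 rows were tested and 0 were called, where 2.55% of all rows were called. At an unadjusted p under 0.05 there were 4 rows of 13, the row that chose the gene among them, where 14.3% of all rows lay under it. Of these ENSMUST00000198165 (0.43, SE 0.12, adjusted p = 0.111), ENSMUST00000198149 (0.49, SE 0.14, adjusted p = 0.125) and ENSMUST00000196613 (0.47, SE 0.18, adjusted p = 0.239) are the 3 single-exon retained-intron rows, with log2 estimates above 0 in the hippocampus. The fourth was ENSMUST00000182575, whose hippocampus counts chose the gene. Its place among the 4 is therefore not read as a result, and its region estimate is not given. The median over the 13 rows, ENSMUST00000182575 among them, was 0.43, with 8 higher and 5 lower in the hippocampus. ENSMUST00000198165 was counted 157, 131 and 113 times in WT hippocampus, 120, 109 and 98 times in 5 × FAD hippocampus, 78, 81 and 62 times in WT cortex and 94, 85 and 116 times in 5 × FAD cortex. ENSMUST00000198149 had 143, 134 and 123 (WT) and 84, 112 and 112 (5 × FAD) counts in hippocampus, and 73, 85 and 57 (WT) and 71, 82 and 112 (5 × FAD) in cortex. For both rows the regions overlapped over the 6 libraries of each.

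**Figure D5:**
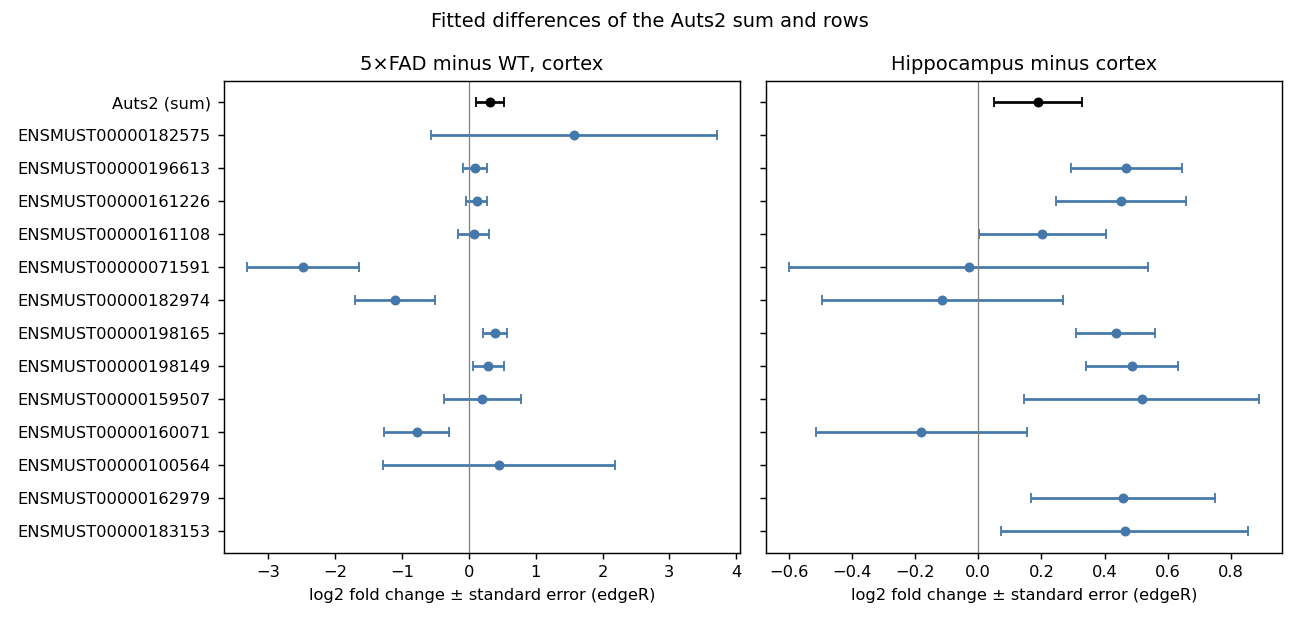
Fitted log2 fold changes with standard errors (edgeR) of the Auts2 sum (black) and of its rows (blue) for 5 × FAD minus WT in the cortex (left) and hippocampus minus cortex (right). Rows removed by the filter have no point at left, ENSMUST00000182575 and ENSMUST00000100564 have none at right since a group was at 0, and no point shown passed an adjusted p of 0.05.

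As a description, rows whose 3 WT and 3 5 × FAD values did not overlap were also counted. In the hippocampus, the contrast that chose the gene, these were 4 of the 13 Auts2 rows, where the share over all rows was 15.2%. ENSMUST00000182575, ENSMUST00000198149 and ENSMUST00000162979 were lower in 5 × FAD mice and ENSMUST00000071591 was higher. ENSMUST00000162979, a short processed transcript of 4 exons, was counted 18, 15 and 14 times in WT hippocampus and 8, 5 and 6 times in 5 × FAD hippocampus. In the cortex ENSMUST00000198165 alone did not overlap, with higher values in 5 × FAD mice, so that 1 of 13 stood against 11.9% of all rows.

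Genes that work with AUTS2 were read from the same table, where their rows are mostly non-coding transcripts of these genes and do not measure their messenger RNAs. Of 19 genes 17 had rows and all 17 were tested, with 0 called in either comparison, where 0.0175% (cortex genotype) and 6.86% (regions) of all gene sums were called. At an unadjusted p under 0.05 edgeR gave 0 in the cortex and 1 between regions, where 6.67% and 19.6% of all gene sums lay under it, and DESeq2 called 0 in both. The median log2 fold change was -0.19 for genotype in the cortex, beside -0.001 for all genes, and 0.01 between regions, beside 0.004. Among the Polycomb partners the highest mean counts were those of Ep300, the acetyltransferase (763), Yaf2, a PRC1 subunit (676), and Csnk2a1, a catalytic subunit of casein kinase 2 (319). In the cortex their log2 fold changes by genotype were 0.15, -0.19 and -0.003 (adjusted p = 0.878, 0.864 and 0.998). The related family genes Fbrsl1 and Fbrs had log2 fold changes of -0.27 and -0.48 (adjusted p = 0.756 and 0.831). Among the cytoplasmic partners, the exchange factors Dock1 and Prex1 and the Dock1 partner Elmo2 had -0.71, -0.38 and 0.14 (adjusted p = 0.867, 0.756 and 0.952). Nrf1, a transcription factor that recruits AUTS2 to promoters, was the one gene at an unadjusted p under 0.05 between regions (log2 fold change 0.45, adjusted p = 0.114).

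Few other genes inside the Auts2 span had rows, and those without rows were not measured. Of 26 annotated genes inside the Auts2 span 3 had rows, the antisense genes 2810432F15Rik, 4930563F08Rik and Gm42439, and each was at 0 in all 12 libraries. The nearest coding gene on the lower side, Galnt17, a glycosyltransferase gene at 128.836 kb, was counted 783, 833 and 182 times in WT hippocampus and 747, 162 and 122 times in 5 × FAD hippocampus. The cortex values were 45, 88 and 266 (WT) and 292, 47 and 70 (5 × FAD), an order unlike that of ENSMUST00000182575. On the other side Castor2, a gene of the mTORC1 pathway at 1556.37 kb, had between 7 and 48 counts.

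The patterns most like those of Auts2 were found by Pearson's correlation of log2(CPM + 1) over the 12 libraries, which share depth and preparation across genes. Among 5633 gene sums of at least 100 mean counts, the closest to the Auts2 sum included Arhgef40, a guanine nucleotide exchange factor (r = 0.854), Rsu1 (0.813), Washc2, of the endosomal WASH complex (0.806), and the assembled locus MSTRG.840 (0.773). Among 6491 rows of other genes, the closest to ENSMUST00000182575 were those of C230004F18Rik (0.883), Cttnbp2 (0.870), Zdhhc24 (0.866), Prrc2c (0.860) and Inpp5k (0.851). The row of Cttnbp2, the gene of a cortactin-binding protein of dendritic spines, was counted 1507, 1297 and 1408 times in WT hippocampus, 617, 673 and 596 times in 5 × FAD hippocampus, 820, 659 and 333 times in WT cortex and 1000, 964 and 971 times in 5 × FAD cortex. It was lower in the 5 libraries without ENSMUST00000182575 but not at 0 in any of them. The row of Zdhhc24 was at 0 or 1 count in the same 5 libraries and at 17 to 431 in the other 7. The most opposite rows were those of Clcn4 (-0.888), Iars2 (-0.867), Proser1 (-0.828), Gm43597 (-0.824) and Slc12a5, the gene of the neuronal potassium-chloride cotransporter (-0.816).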

How the data were processed

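Total RNA from the hippocampus and cerebral cortex was depleted of ribosomal RNA and sequenced from both ends as stranded libraries. The paper for these data describes removal of linear RNA with RNase R, and Burrows-Wheeler alignment, for circular RNA libraries of the hippocampus. The labels of the libraries used here name no RNase R step. Per the labels, the submitters' processing notes name Trimmomatic 0.36 and edgeR, and the aligner, counter, genome build and annotation behind the transcript counts are not given in the sources used here. The authors deposited whole-number counts per transcript, not normalized, in 12 columns, all used. GENCODE M21 (GRCm38) gave the gene of each row and lacked 225 of the Ensembl identifiers. Replicate numbers came from the library codes. The series design does not say which number is which animal, so p-values measure the spread between these libraries. The 12 pairs of libraries of the same group differed beyond counting noise (chi-square per degree of freedom 20.8 to 33.0).

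Rows, and counts summed per gene, were tested with edgeR 4.0.16 (R 4.3.3; filterByExpr, TMM, glmQLFit, glmQLFTest) with Benjamini-Hochberg adjustment over all rows or sums at 0.05. DESeq2 1.42.0, other normalizations and filters, a replicate block, each library left out, and libraries with Y-linked transcripts alone were alternatives. CPM were scaled by TMM factors of the row table. SE is the absolute log2 fold change over the square root of F. On simulated counts the tests recovered 84.41% (cortex, rows), 91.62% (cortex, sums), 98.4% (regions, rows) and 100% (regions, sums) of features changed 4-fold. Of the calls, 4.4% (regions, sums) to 5.4% (cortex, sums) were false. The simulation gave every feature the same spread, so these rates do not cover rows that moved between 0 and high counts.

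Every Auts2 row is accounted for, in full where its mean share was at least 5%, where it had 100 counts or more in a library and 3 or fewer in another of the same region, or where it was called. Of other genes, called list members, the 3 of highest mean counts per list, the 5 closest patterns, genes inside Auts2 and its nearest coding neighbours are named, except 1 gene that is not reported here. ENSMUST00000198149, ENSMUST00000198165, ENSMUST00000162979, ENSMUST00000100564 and Nrf1 were named after their values were seen. Members and lists were chosen with earlier results of these data known. Lists for neurons, astrocytes, oligodendrocytes, microglia and endothelium had 0 genes called in either comparison, with 5, 3, 4, 1 and 2 genes tested. Deviations of same-numbered libraries had correlations of 0.006 to 0.132 between regions and -0.039 to 0.009 between genotypes. In 5 × FAD the presence of Y-linked transcripts followed the number in both regions. Numbers were not used as pairs in the main tests, because the sources do not say which animal they mark. If they mark the same mice, the main region tests and the permutation test treated paired libraries as independent. Floors cover counting error only, and 95% intervals use the t distribution with the degrees of freedom of the fit.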

Additional observations from a re-analysis of the deposited data

How the results depend on the processing

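An adjusted p over 0.05 does not show that levels were equal. Leaving out each library in turn, the cortex genotype estimate of the Auts2 sum ranged from 0.16 to 0.54, the region estimate from 0.10 to 0.29 and the descriptive hippocampus log2 ratio from -0.53 to -0.26. The number of Auts2 rows called in the cortex ranged from 0 to 1, the 1 being ENSMUST00000182575 without cortex WT 1 (adjusted p = 0.0331, fitted value 13.2 against WT libraries at 0). Without that row, an alternative chosen after seeing the data, the cortex estimate of the sum turned to -0.22 (adjusted p = 0.808). Leaving out cortex WT 1 also turned the cortex estimate of ENSMUST00000196613 to -0.055 (highest 0.18, without cortex WT 2) and the region estimate of ENSMUST00000182575 to 0.13 (lowest -6.00, a fitted value against a group at 0). The region estimate of ENSMUST00000071591, -0.03, turned to 0.26 without cortex WT 2, 0.05 without cortex WT 3, 0.14 without cortex 5 × FAD 2, 0.21 without hippocampus 5 × FAD 1 and 0.42 in libraries with Y-linked transcripts alone, with -0.30 the lowest value when a library was left out. None of these was called, and the cause was not tested.

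In the cortex the replicate block was the number in the library code. It joins different animals of the genotypes, so it is not a pairing of mice. With it the edgeR estimate of the Auts2 sum was 0.34 (adjusted p = 0.906), and that of ENSMUST00000182575 moved from 1.57 to 7.62. Between regions the block was the genotype with the number. With it the sum had an estimate of 0.20 (adjusted p = 0.516), and that of ENSMUST00000071591 turned to 0.036. No call changed with either block. Not every library correlated best with its own number.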
